A study of Mus musculus with 48 samples.

Results

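The genes described here are the protein-coding genes of the voltage-gated and related channel families that the authors' deposited tables list: potassium channels (Kcn), sodium channels (Scn), calcium channels (Cacn), hyperpolarization-activated channels (Hcn), chloride channels and exchangers (Clcn), transient receptor potential channels (Trp) and anoctamins (Ano). They were chosen by symbol and number 80 of the 6094 genes in the 2 tables together. The rule takes auxiliary subunits with the pores, and it also takes Trpc4ap, whose product binds a TRP channel and is not itself a channel. The series holds 48 samples of mouse cerebellum. The libraries used here are total RNA of postnatal days 27 to 28: 4 WT and 4 with a conditional knockout of Chd4 (Chd4 cKO), and, all of WT genotype, 4 after rotarod and 4 at rest. Chd4 is an ATPase that moves nucleosomes, and the rotarod is a turning rod that a mouse has to balance on. Which Cre line made the knockout, and in which cells, the strain and the length of the rotarod session are not stated in the sources used.

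Ion channels let charged atoms cross the cell membrane, and the set of channels a neuron makes decides when and how often it fires. Potassium channels pull the membrane back towards rest. Sodium and calcium channels drive it up, and calcium entry also starts transmitter release. Pore subunits form the path for the ion, and auxiliary subunits change how the pore opens or where it sits in the cell. In the cerebellum, granule neurons and Purkinje cells, which fire without input, depend on different sets of these genes.

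A table lists a gene only where the authors' test called it (adjusted p under 0.05), so a gene that is not listed has no value here. The table of cKO against WT lists 5508 genes, 20.3% of the features tested, and 79 of them are ion channel genes. The table of rotarod against rest lists 908 genes, 3.38% of the features tested, and 3 of them are ion channel genes. The Sync-TRAP tables of ribosome-bound RNA at postnatal day 12 list 38 and 51 genes, none of them ion channel genes. Chd4 itself held 8.34, 8.45, 8.41 and 8.31 log2 CPM in WT libraries 1 to 4 and 8.06, 7.90, 7.90 and 7.90 in cKO libraries 1 to 4, so the groups did not overlap and much of its RNA remained in whole cerebellum. Cbln3, a gene of granule neurons, and Pcp2, a gene of Purkinje cells, had mean WT levels of 10.52 and 8.09 log2 CPM, as a cerebellum label calls for. CPM is reads scaled to a common library size, and the effective depth was 13.72 to 16.75 M reads per library. Differences are in log2 CPM, cKO minus WT or rotarod minus rest, ± SE from limma, and the words rose and fell are kept for genes whose limma p, adjusted over all features tested, was under 0.05. P-values measure the spread between these samples, since the labels do not say that each came from its own animal.

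Sequences just before the start sites are shown for 3 of the genes that rose most in cKO and for the gene that differed most after rotarod, since these are genes on which the results turn. They are RefSeq promoters on build GRCm38.p6, the 250 bases before the start, 5′ to 3′ on the gene's own strand, with CG pairs in capitals and, for Kcnh6 alone, the letters TTCAGCACC as well. Kcnj5 lies at chr9:32344345-32344594 on the minus strand, Kcnh6 at chr11:106007898-106008147 on the plus strand, Scn11a at chr9:119825457-119825706 on the minus strand and Kcna5 at chr6:126535556-126535805 on the minus strand.
Kcnj5: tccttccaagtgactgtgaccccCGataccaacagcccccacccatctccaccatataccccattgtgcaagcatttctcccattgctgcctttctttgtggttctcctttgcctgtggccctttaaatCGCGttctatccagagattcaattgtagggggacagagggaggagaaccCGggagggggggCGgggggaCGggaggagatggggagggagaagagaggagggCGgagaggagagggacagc
Kcnh6: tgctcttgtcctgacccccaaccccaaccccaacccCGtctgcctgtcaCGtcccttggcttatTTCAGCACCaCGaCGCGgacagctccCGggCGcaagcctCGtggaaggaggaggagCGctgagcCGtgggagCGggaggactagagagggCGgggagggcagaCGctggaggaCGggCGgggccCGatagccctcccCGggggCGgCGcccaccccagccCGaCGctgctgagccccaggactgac
Scn11a: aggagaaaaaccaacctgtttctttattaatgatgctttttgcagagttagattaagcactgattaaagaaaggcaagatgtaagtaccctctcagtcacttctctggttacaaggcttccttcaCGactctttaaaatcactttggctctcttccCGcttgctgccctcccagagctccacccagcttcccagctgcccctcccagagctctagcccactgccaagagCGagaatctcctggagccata
Kcna5: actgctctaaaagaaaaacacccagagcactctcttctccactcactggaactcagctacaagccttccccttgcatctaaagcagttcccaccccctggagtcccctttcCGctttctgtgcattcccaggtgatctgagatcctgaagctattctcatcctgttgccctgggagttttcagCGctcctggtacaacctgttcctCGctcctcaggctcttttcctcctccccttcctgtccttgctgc

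These 4 stretches differ widely in base composition. The Kcnh6 promoter is 70.8% G or C with 21 CG pairs, that of Kcnj5 58% with 7, that of Kcna5 53.2% with 3 and that of Scn11a 48% with 3. The median over all 32851 promoters of the table is 52.4% with 6 CG pairs, and over the 94 promoters of 63 listed ion channel genes it is 57.6% with 8. The search covered 3 motifs on both strands, and none overlaps another. TTCAGCACC, the core of the RE1 element that the repressor REST binds in neuronal genes, begins 186 bases before the Kcnh6 start. No other of the 94 promoters holds it, a share of 1.06% against 0.301% of all promoters. Listed ion channel genes outside the 63, Scn3b among them, had no promoter to search. TGACGTCA, the cAMP response element, is in 1 ion channel promoter (Clcn4, which the tables call Clcn4-2), 1.06% against 1.55% of all. TGACTCA, the AP-1 element, is in those of Cacng5 and Kcnk2, 2.13% against 4.46% of all. None of the 3 motifs is in the stretches shown for Kcnj5, Scn11a and Kcna5.

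The loss of Chd4 was compared with WT to ask which channel genes depend on this remodeler. In the cKO cerebellum 35 ion channel genes rose, 15 fell and the other 29 were called by the authors alone. The rises reached 4.89 on the log2 scale and were led by genes at low levels in WT. They included the inward rectifier Kcnj5, the voltage-gated potassium channels Kcnh6 and Kcnq5, the sodium channel genes Scn11a and Scn3b, and the auxiliary subunit Kcnip2. Over the WT libraries these genes had from 9 reads (Kcnj5) to 424 (Scn3b). The falls of the 14 genes with reads in both groups were smaller, 0.17 to 0.72, and included the inward rectifier Kcnj9 and the sodium channel Scn2a1. Kcnmb3, the other gene that fell, had no cKO read.

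The families have 181 protein-coding genes in RefSeq. The 79 listed ones are 43.6% of them, against 22.9% of all RefSeq protein-coding genes, a comparison that takes no account of how highly the families are expressed in cerebellum. Genes that limma called higher make up 8.17% of all features tested, and those it called lower 5.04%. limma could be fitted to listed genes only, so features that are not listed count here as not called. The 35 and 15 ion channel genes are 19.3% and 8.29% of the families. These shares have unlike bases, since the features tested are of all gene types and the families are protein-coding genes of RefSeq. Among listed genes the shares are closer to each other: 44.3% of the listed ion channel genes rose and 19% fell, against 40.2% and 24.8% of all listed genes. The authors' deposited table gives 47 of the 79 as higher and 32 as lower, where 11% and 9.29% of all features tested were called higher and lower. The higher genes make up 59.5% of the 79 and 54.3% of all genes in that table. The median difference of the 79 was 0.31, against 0.21 over all listed genes. The 4 cKO and 4 WT libraries did not overlap in 63 of the 79 genes, 79.7%, close to the 78% of all listed genes. The unadjusted limma p was under 0.05 in 74 of the 79. The authors' test on the same libraries had chosen these genes, so this count is no separate support.

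**Figure D1:**
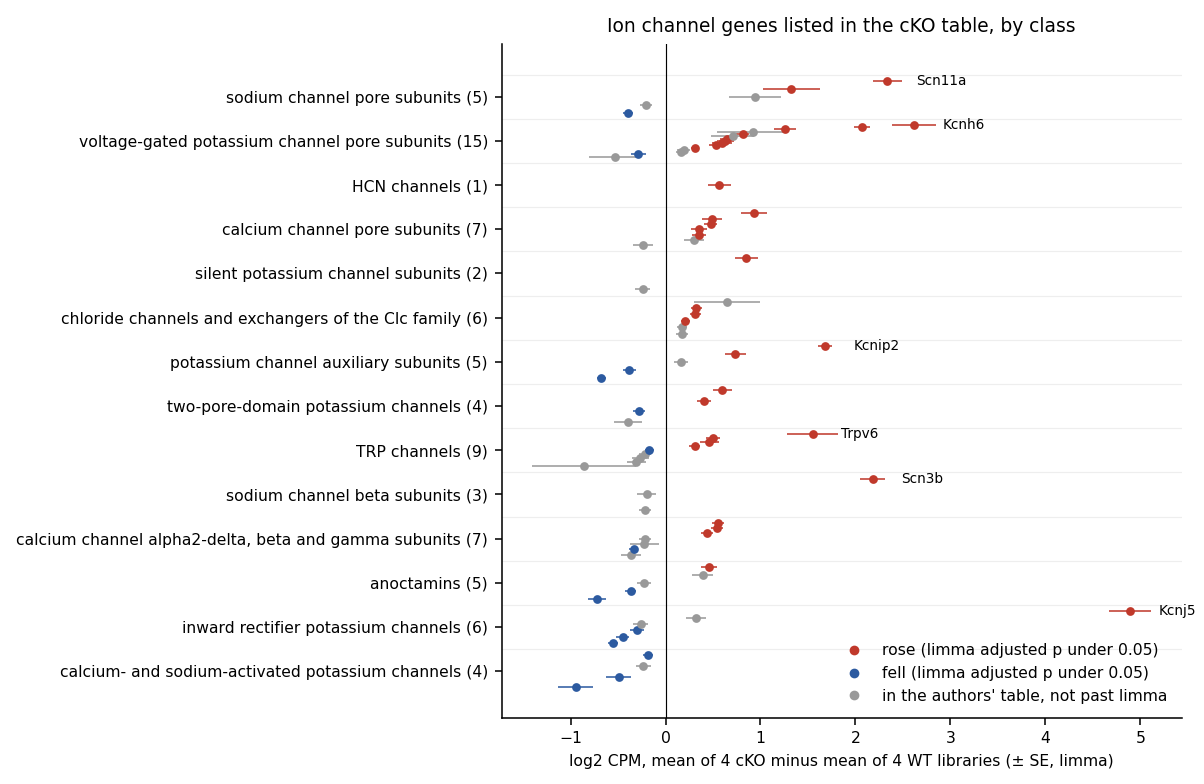
Difference in log2 CPM between the mean of 4 cKO and the mean of 4 WT libraries (horizontal axis, ± SE from limma) for the 79 listed ion channel genes, grouped by class (vertical axis, number listed in brackets). Red points rose, blue points fell and grey points were called by the authors alone; the rises reach 4.89 (Kcnj5), and the falls reach 0.72 (Ano3) among genes with reads in both groups. The blue point furthest to the left is Kcnmb3, which had no cKO read, so that its plotted size depends on the prior count and is no bound.

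The count of falls depended more on the fit than the count of rises. It was 9 without cKO library 4 and 9 without WT library 2, 24 with an abundance trend in limma, and 32 in the authors' deposited table. With libraries 1 and 2 of each genotype alone 9 genes rose and 1 fell, and with libraries 3 and 4 alone 14 rose and 2 fell. With the library number as a replicate block 34 rose and 10 fell. The block ended 9 calls, among them those of Kcnj10, Kcnk1, Kcnma1, Kcnmb4, Trpc4ap, Clcn6, Trpm4 and Cacna1i (adjusted p from 0.052 for Kcnj10 to 0.121 for Trpc4ap). Libraries 1 and 2 and libraries 3 and 4 stand apart on the first component of the variation within genotypes (31.9% of it). The labels name no batch. The sign of the difference was the same in both pairs in 78 of the 79 genes.

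Voltage-gated potassium channel pore subunits open when the membrane is depolarized and repolarize it. Of the 30 genes in RefSeq 15 are listed, and 9 rose and 1 fell, where 40.2% of all listed genes rose and 24.8% fell. Kcnq genes encode the pores of the M-current, a slow potassium current that restrains repeated firing. Kcnq5 held 1.55, 1.45, 1.09 and 1.64 log2 CPM in WT libraries 1 to 4 and 2.74, 2.76, 2.68 and 2.60 in cKO libraries 1 to 4. All cKO libraries were above all WT libraries. It rose by 1.26 ± 0.12 (limma adjusted p = 0.000244). Kcnq3, which pairs with other Kcnq subunits in the brain, rose by 0.65 ± 0.07.

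Kcnh6 and Kcnh2 encode ether-a-go-go-related channels. Kcnh6 (ERG2) held 0.85, -0.35, 0.37 and 0.51 log2 CPM in WT libraries and 3.22, 2.88, 2.81 and 2.93 in cKO libraries. WT library 2 was the lowest, and the groups did not overlap. The difference was 2.62 ± 0.23 (limma adjusted p = 0.000211). Its relative Kcnh2 (ERG1), at 5.71 to 6.08 in WT, rose by 0.63 ± 0.09. The delayed and fast rectifier genes Kcna3 and Kcnc4 rose by 0.60 ± 0.10 and 0.53 ± 0.08, and Kcnd3, an A-type channel gene, by 0.31 ± 0.05.

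Kcna2 (Kv1.2), found at basket cell terminals, differed by 0.19 ± 0.07 and Kcnd2 (Kv4.2), an A-type channel of granule neurons, by 0.16 ± 0.05, and neither passed (limma adjusted p = 0.127 and 0.0822). Kcna7 had 2 reads in WT and 13 in cKO, 8 of the latter in cKO library 4, a ratio of 6.64 with a 95% counting interval of 1.5 to 60.6. Kcna1 and Kcnc1 are not listed.

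Kcnb2 and its libraries were looked at after the values were seen. Kcnb2, a delayed rectifier pore, held 4.05, 3.93, 4.57 and 4.61 log2 CPM in WT libraries 1 to 4 and 4.60, 4.76, 5.19 and 5.45 in cKO libraries 1 to 4. Libraries 3 and 4 were above libraries 1 and 2 in each genotype, by 0.62 on average. The cKO was higher by 0.68 within libraries 1 and 2 and by 0.73 within libraries 3 and 4. Over all 8 libraries the difference of 0.71 ± 0.23 did not pass (limma adjusted p = 0.091), but with the library number as a replicate block it did (adjusted p = 0.00577).

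Silent subunits form no channel of their own and change the properties of others, and 2 of 10 are listed. Kcns2 held 3.5, 3.31, 3.19 and 3.25 log2 CPM in WT and 3.83, 4.28, 4.32 and 4.23 in cKO. cKO library 1 was the lowest of its group and still above every WT library. The difference was 0.85 ± 0.12 (limma adjusted p = 0.0023). The other listed subunit, Kcng4, differed by -0.24 and did not pass.

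Inward rectifiers hold the membrane near rest, and some open when a G protein is released by a receptor. Of 15 genes 6 are listed, 1 of which rose and 3 of which fell. Kcnj5 (GIRK4), a G-protein-gated subunit best known from the heart, had 3, 1, 4 and 1 reads in WT libraries 1 to 4 and 100, 139, 106 and 121 in cKO libraries 1 to 4. It was almost absent in WT and clearly present in every cKO library. The totals of 9 and 466 reads give a ratio of 52.9 after scaling for depth, with a 95% counting interval of 27.6 to 116. On the deposited log2 scale, where a prior count shrinks low values, the libraries held -1.57, -2.26, -1.35 and -2.29 in WT and 2.89, 3.25, 2.96 and 2.99 in cKO, and the difference was 4.89 ± 0.22 (limma adjusted p = 6.65e-06). With 1 added to each CPM the difference was 2.97.

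The G-protein-gated subunit gene Kcnj9 (GIRK3) went the other way. It held 6.99, 6.91, 7.01 and 6.90 log2 CPM in WT and 6.47, 6.44, 6.31 and 6.38 in cKO, with no overlap, and fell by 0.55 ± 0.06 (limma adjusted p = 0.00039). Kcnj6 (GIRK2), the subunit that granule neurons are known for, differed by 0.32 ± 0.10 and did not pass (limma adjusted p = 0.0931). It passed without cKO library 2 at 0.39 (limma adjusted p = 0.0378) but not without any other 1 library (adjusted p up to 0.239). Kcnj11, the pore of the ATP-sensitive channel, fell by 0.45 ± 0.07. Kcnj10 (Kir4.1), a channel of glia that takes up potassium, held 8.55, 8.36, 8.23 and 8.44 in WT and 8.15, 8.14, 8.05 and 8.03 in cKO. It fell by 0.30 ± 0.08 (limma adjusted p = 0.0358), and the call was lost when any 1 library other than WT 3 was left out (adjusted p up to 0.101). Beside the glial Kcnj10, the 4 listed astrocyte and Bergmann glia markers of 8 were all lower, 2 of them past limma. Their summed level, which covers only markers the authors called changed, was 3600 to 3770 CPM in WT and 3090 to 3360 in cKO. In bulk RNA, fewer cells of a type and less RNA in each cannot be told apart.

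**Figure D2:**
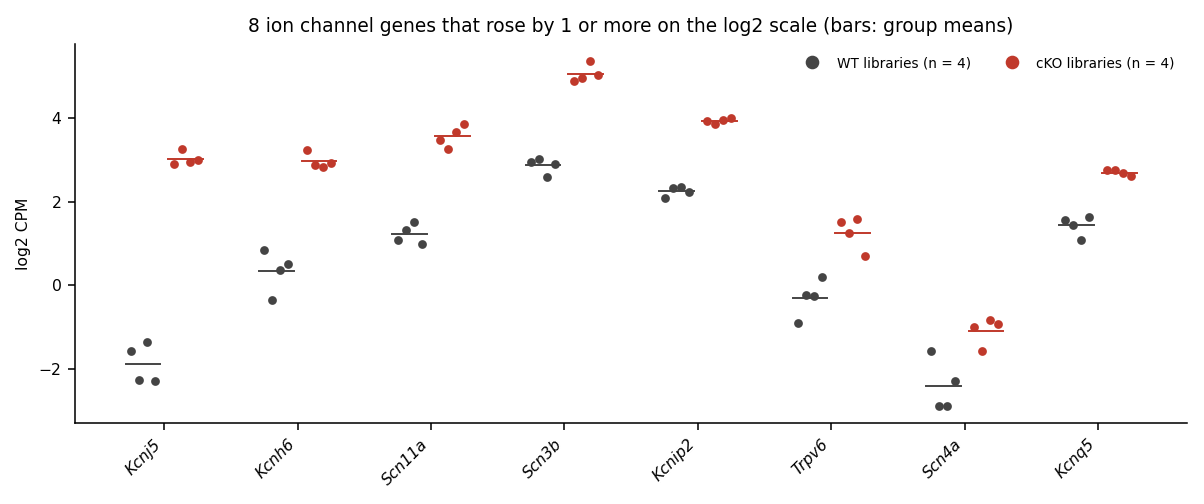
Log2 CPM (vertical axis) in each of 4 WT (grey) and 4 cKO (red) libraries for 8 of the 9 ion channel genes that rose by 1 or more, with bars at the group means. In the 8 genes every cKO library is above the mean of WT, and Kcnj5 shows the widest gap, from at most -1.35 in WT to at least 2.89 in cKO.

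Tandem pore domain channels (Kcnk) carry background potassium currents, and 4 of 14 are listed. Kcnk9 (TASK-3), a leak channel of granule neurons, held 5.04, 4.94, 5.37 and 5.10 log2 CPM in WT and 5.71, 5.61, 5.65 and 5.88 in cKO. The groups were apart, and it rose by 0.60 ± 0.10 (limma adjusted p = 0.00579). Kcnk2 (TREK-1), a stretch-sensitive channel, rose by 0.40 ± 0.07. Kcnk1 (TWIK-1) held 8.03, 7.91, 7.89 and 7.82 in WT and 7.52, 7.71, 7.68 and 7.61 in cKO and fell by 0.28 ± 0.07 (limma adjusted p = 0.026). Its call was lost without cKO library 1 or 4 or WT library 1, 2 or 3 (adjusted p up to 0.0719). Kcnk10, at -0.39, did not pass (limma adjusted p = 0.142), but did with the replicate block (adjusted p = 0.0469).

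Calcium- and sodium-activated potassium channels shape the pause after a spike, and all 4 of the 12 genes that are listed were lower, 3 of them past limma. Among all listed genes 45.7% were lower and 24.8% fell, and 4 genes are too few to set firmly against these shares. Kcnma1, the pore of the BK channel, held 7.68, 7.76, 7.60 and 7.66 log2 CPM in WT and 7.48, 7.50, 7.49 and 7.49 in cKO. The cKO values lay close together and below every WT value. The difference was small, -0.18 ± 0.05 (limma adjusted p = 0.045). Its call was lost when any 1 library other than WT 3 was left out (adjusted p up to 0.119). With an abundance trend in limma the difference passed (adjusted p = 0.0127). Kcnmb4, a neuronal BK beta subunit, fell by 0.49 ± 0.14 (limma adjusted p = 0.0478). The call was lost without cKO library 1, 3 or 4 or WT library 2, 3 or 4 (adjusted p up to 0.131), and the fall was 0.29 in libraries 1 and 2 alone. Its antisense gene Kcnmb4os2 differed by -0.62 ± 0.14. The sources used here do not say whether counting used strand, so reads of the pair cannot be told apart. Kcnmb3 had 3, 1, 1 and 3 reads in WT and none in cKO. Against a floor of 3 reads over the group, WT was 2.61-fold higher. That value leaves out the counting error of the WT reads, so it is no firm bound. With 1 added to each CPM Kcnmb3 did not pass (limma adjusted p = 0.0826).

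Auxiliary potassium channel subunits include the Kcnip calcium sensors of A-type channels and the Kcnab beta subunits of Kv1 channels, and 5 of 13 are listed. Kcnip members moved in both directions. Kcnip2 held 2.09, 2.33, 2.35 and 2.23 log2 CPM in WT and 3.92, 3.85, 3.95 and 4.0 in cKO, and rose by 1.68 ± 0.07 (limma adjusted p = 5.1e-06). Kcnip4 held 6.87, 6.89, 6.85 and 6.94 in WT and 6.21, 6.17, 6.28 and 6.19 in cKO, and fell by 0.68 ± 0.05 (limma adjusted p = 6.2e-05). Neither gene had overlapping groups. Kcnip1 fell by 0.38 ± 0.07, and the fourth family member, Kcnip3, is not listed. Kcnab3 rose by 0.74 ± 0.11, and its antisense gene Kcnab3os rose by 0.92 ± 0.16, with the same limit on telling the reads of a pair apart.

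Sodium channel pore subunits carry the upstroke of the action potential. Of 10 genes 5 are listed, 2 of which rose and 1 of which fell. Scn11a (Nav1.9), best known from pain-sensing neurons outside the brain, held 1.09, 1.33, 1.5 and 0.98 log2 CPM in WT and 3.47, 3.26, 3.65 and 3.86 in cKO. The lowest cKO library was well above the highest WT library, and the rise was 2.33 ± 0.15 (limma adjusted p = 4.4e-05). Scn2a1 (Nav1.2), a channel of axons and of granule neurons, held 9.0, 9.04, 9.09 and 9.10 in WT and 8.64, 8.65, 8.72 and 8.64 in cKO. It was lower in every cKO library and fell by 0.39 ± 0.05 (limma adjusted p = 0.0011). Scn8a (Nav1.6), which supports the repeated firing of Purkinje cells, differed by -0.21 ± 0.06 and did not pass (limma adjusted p = 0.0691). It passed without WT library 1 at -0.24 (limma adjusted p = 0.0384) but not without any other 1 library (adjusted p up to 0.184). Scn1a is not listed.

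Scn4a was picked out after its values were seen. This gene, the channel of skeletal muscle, had 3, 0, 0 and 1 reads in WT and 5, 3, 6 and 6 in cKO, a ratio of 5.11 (95% counting interval 1.71 to 20.6). Its log2 difference of 1.33 ± 0.30 passed (limma adjusted p = 0.0231) but was lost without cKO library 1, 3 or 4 or WT library 2, 3 or 4 (adjusted p up to 0.0687). Beside it, all 4 listed skeletal muscle markers of 6 rose, from a summed 3.68 to 4.75 CPM in WT to 49.6 to 54.5 in cKO. They were led by Casq1, a calcium-binding protein of the sarcoplasmic reticulum, at 4.95 ± 0.11, and Acta1, skeletal actin, at 2.46 ± 0.08. Tnnc2, a troponin, had no reads in WT, and Myh1 and Ckm are not listed. The part of other cells or of their genes in these reads was not tested.

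Beta subunits bring sodium channels to the membrane and change their gating, and 3 of 4 are listed. Scn3b held 2.95, 3.03, 2.58 and 2.90 log2 CPM in WT and 4.87, 4.95, 5.35 and 5.02 in cKO. Library 3 was the lowest of WT and the highest of cKO. The rise was 2.18 ± 0.13 (limma adjusted p = 2.6e-05). Scn2b and Scn4b, the latter known for the resurgent current of Purkinje cells, lay at 8.57 to 8.77 and 6.38 to 6.69 in WT and differed by -0.22 and -0.20, and neither passed.

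Calcium channel pore subunits (Cacna1) fall into high-voltage types, which serve transmitter release and calcium entry in dendrites, and low-voltage T types, which support bursts. Of 10 genes 7 are listed, and 5 rose and none fell, where 40.2% of all listed genes rose and 24.8% fell. Of the T types, Cacna1g (Cav3.1), a channel of Purkinje cells and cerebellar nuclei, held 9.06, 9.13, 9.10 and 9.01 log2 CPM in WT and 9.59, 9.46, 9.46 and 9.70 in cKO. The groups were apart, and the rise was 0.48 ± 0.07 (limma adjusted p = 0.00227). Cacna1i (Cav3.3) rose by 0.36 ± 0.08 (limma adjusted p = 0.0247) but not without cKO library 1, 2 or 4 or WT library 1 or 4 (adjusted p up to 0.0693). The L-type gene Cacna1c (Cav1.2) held 7.31, 7.48, 7.54 and 7.55 in WT and 7.85, 7.70, 7.89 and 7.84 in cKO and rose by 0.35 ± 0.07 (limma adjusted p = 0.0158). Cacna1f (Cav1.4), the L type of photoreceptors, rose by 0.93 ± 0.14 from 0.20 to 0.64 in WT, the largest rise of the class.

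The N-type gene Cacna1b (Cav2.2), a release channel, rose by 0.49 ± 0.11 (limma adjusted p = 0.0175), a call lost without cKO library 3 or 4 or WT library 2 (adjusted p up to 0.0539). The P/Q-type gene Cacna1a (Cav2.1), the main calcium channel of Purkinje cells and of many synapses, held 9.85 to 10.28 in the 4 WT libraries and 9.67 to 9.92 in the 4 cKO libraries. The groups overlapped, and the difference of -0.24 ± 0.10 did not pass (limma adjusted p = 0.256). The R-type gene Cacna1e differed by 0.30 and did not pass.

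Of the 16 genes whose symbols name them accessory calcium channel subunits 7 are listed. The beta subunits, which carry the pore to the membrane, split. Cacnb1 held 4.98, 5.02, 5.09 and 5.05 log2 CPM in WT and 5.67, 5.68, 5.50 and 5.50 in cKO and rose by 0.55 ± 0.06. Cacnb3 rose by a like amount, 0.54 ± 0.06 (limma adjusted p = 0.000779 for each). Cacnb4, a beta subunit prominent in cerebellum, held 8.68, 8.73, 8.69 and 8.68 in WT and 8.31, 8.32, 8.44 and 8.36 in cKO and fell by 0.34 ± 0.05 (limma adjusted p = 0.0029). No groups overlapped in these 3 genes. Cacna2d3, an alpha2-delta subunit, rose by 0.44 ± 0.06. Cacnb2, Cacng3 and Cacng5 were lower by 0.22 to 0.36 and did not pass.

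**Figure D3:**
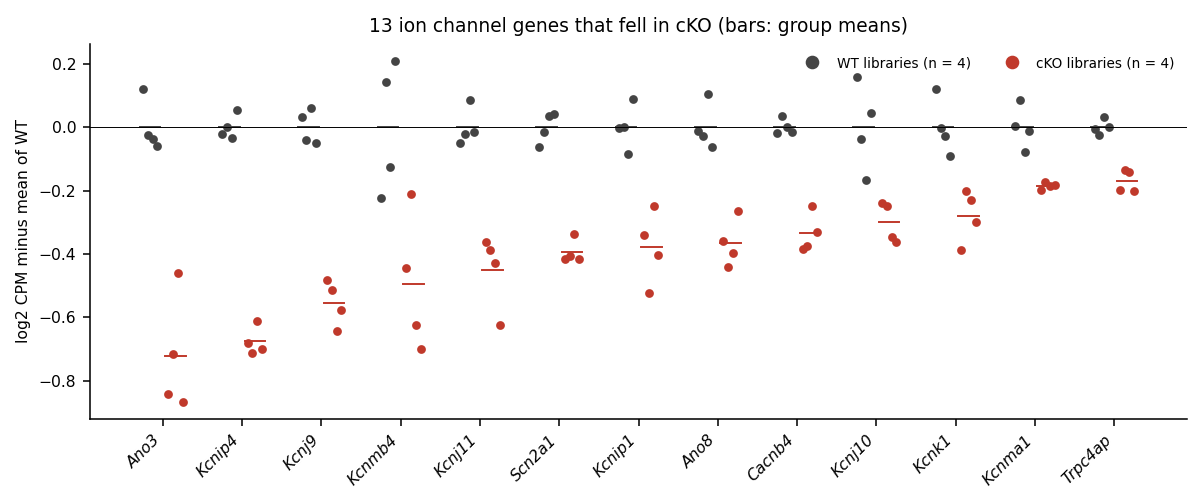
Log2 CPM minus the WT mean of each gene (vertical axis) in 4 WT (grey) and 4 cKO (red) libraries for 13 of the 15 ion channel genes that fell, with bars at the group means; Kcnmb3, with no cKO read, is among those left out. The falls run from 0.72 (Ano3) to 0.17 (Trpc4ap), and in each gene shown the cKO mean lies below the WT mean.

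Hcn channels open on hyperpolarization and pace rhythmic firing, and 1 of 4 is listed. Hcn4 held 2.91, 3.04, 2.58 and 2.51 log2 CPM in WT and 3.44, 3.26, 3.33 and 3.28 in cKO. Every cKO library was above every WT library, and the rise was 0.57 ± 0.12 (limma adjusted p = 0.0174). Without cKO library 1 it did not pass (adjusted p = 0.0519), and it was 0.38 within libraries 1 and 2 and 0.76 within libraries 3 and 4.

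The Clc family holds channels of the surface membrane and chloride-proton exchangers of endosomes and lysosomes. All 6 of the 9 genes that are listed were higher, and 3 rose, where 54.3% of all listed genes were higher and 40.2% rose. The endosomal exchanger gene Clcn5 rose by 0.32 ± 0.06 and the surface channel gene Clcn2 by 0.31 ± 0.06. The lysosomal exchanger gene Clcn6 rose by 0.21 ± 0.05 (limma adjusted p = 0.025), a call lost when any 1 library other than cKO 3 was left out (adjusted p up to 0.0668).

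TRP channels are cation channels opened by lipids, calcium, heat or receptors, and 9 of 24 are listed by the rule. Trpv6, an epithelial calcium channel, held -0.90, -0.22, -0.25 and 0.21 log2 CPM in WT and 1.5, 1.24, 1.59 and 0.70 in cKO. WT library 1 and cKO library 4 were the lowest of their groups, which did not overlap. The rise was 1.55 ± 0.26 (limma adjusted p = 0.00604), and 0.95 with 1 added to each CPM. Trpv2 rose by 0.50 ± 0.07 and Trpm2, a channel opened by oxidative stress, by 0.31 ± 0.06. Trpm4, opened by internal calcium, rose by 0.46 ± 0.10 (limma adjusted p = 0.0211), but not without cKO library 2, 3 or 4 or WT library 2 or 4 (adjusted p up to 0.0635).

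Trpc4ap fell by 0.17 ± 0.04 (limma adjusted p = 0.0392), a call lost whichever library was left out (adjusted p up to 0.113). Trpv4, looked at after its values were seen, held 3.27, 1.49, 1.60 and 3.03 in WT and 2.49, 0.44, 1.78 and 1.26 in cKO and did not pass. WT libraries 1 and 4 and cKO library 1 were its highest, and the same 3 libraries were the highest for Folr1, a marker of the choroid plexus. Of the 6 choroid plexus markers 3 are listed, none past limma, with a summed level of 17.5 to 35.9 CPM in WT and 13.6 to 21.5 in cKO. The part of choroid plexus tissue in Trpv4 was not tested.

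Anoctamins are calcium-activated chloride channels and lipid scramblases, and 5 of 10 are listed. Ano3 held 5.53, 5.39, 5.38 and 5.35 log2 CPM in WT and 4.57, 4.70, 4.95 and 4.55 in cKO. It was lower in every cKO library, and cKO library 3 was the closest to WT. The fall was 0.72 ± 0.10 (limma adjusted p = 0.00172). Ano8 fell by 0.37 ± 0.06 (limma adjusted p = 0.00507). Ano10 rose by 0.46 ± 0.08, and by 0.28 within libraries 1 and 2 alone.

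**Figure D4:**
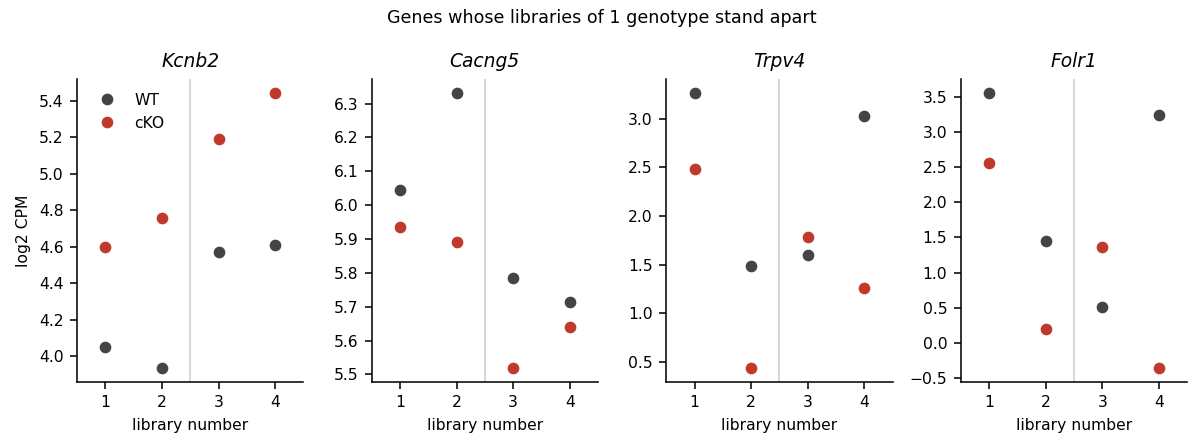
Log2 CPM (vertical axis, a scale of its own for each gene) by library number (horizontal axis) in WT (grey) and cKO (red) for Kcnb2, Cacng5, Trpv4 and the choroid plexus marker Folr1; the vertical line parts libraries 1 and 2 from 3 and 4. Kcnb2 is higher and Cacng5 lower in libraries 3 and 4 in each genotype, by 0.62 and 0.39 on average over WT and cKO, while the high libraries of Trpv4 are those of Folr1.

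The largest rises were in genes at low levels in WT. The 9 genes that rose by 1 or more, 11.4% of the listed ion channel genes against 12.1% of all listed genes, had mean WT levels of -2.40 to 3.43 log2 CPM with a median of 1.23. The 26 that rose by less had a median WT level of 5.36, and the 15 that fell 6.95. The same order held over all listed genes, with medians of -0.24, 4.72 and 5.18. A gene with few reads needs a larger change to be listed, and these levels count reads per gene, not corrected for its length.

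A list of 16 channel genes best known for the firing of granule neurons and Purkinje cells had 11 listed. Of these Cacna1g and Kcnk9 rose, Scn2a1 and Kcnma1 fell, and Kcna2, Kcnd2, Kcnj6, Scn8a and Cacna1a did not pass. No listed difference among the 11 was larger than the 0.60 of Kcnk9. Beside these genes, all 7 listed Purkinje cell markers of 8 were lower, 4 past limma, with summed levels of 8170 to 8680 CPM in WT and 6950 to 7470 in cKO. Of the 5 listed granule neuron markers of 8, Pax6 and Gabra6 rose and Neurod1, Zic2 and Cbln3 fell, and their sum went from 3090 to 3310 CPM down to 2550 to 2690. The 4 listed inhibitory interneuron markers of 8 all fell, from 363 to 409 CPM down to 290 to 323. Marker sums here and above cover only markers that the authors' test called changed on the same libraries, so they are not levels of a cell type. Cbln3 held the most reads of the listed granule neuron markers and Itpr1 of the listed Purkinje cell markers. The part of these cell types in the channel genes was not tested.

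Other marker lists were read in the same way. The 4 listed vascular markers of 7 fell. The 5 listed oligodendrocyte markers of 8 and the 4 listed meninges and fibroblast markers of 6 were all lower, with 2 and 0 past limma, and no microglia marker of 6 is listed. Of 4 unipolar brush cell markers 3 are listed, and Calb2 alone rose, by 0.96, while Eomes and Lmx1a were lower and did not pass.

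Among listed ion channel genes, 3 pairs are next to each other in RefSeq's gene order, and each pair differed in the same direction. Kcnj9 and Kcnj10 on chromosome 1 both fell. Kcna3 and Kcna2 on chromosome 3 were both higher, the first past limma. On chromosome 9, Scn2b and Scn4b were both lower and neither passed. How often neighbours among all listed genes differ in the same direction was not computed, so these 3 pairs have no share to be set against.

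Genes whose products bind or place voltage-gated channels were taken as a list of 35, of which 14 are listed. Of the 14, 5 rose and 3 fell, where 40.2% of all listed genes rose and 24.8% fell. Their median difference was -0.19, against 0.21 over all listed genes. The rises included Gem (1.87 ± 0.14), Rrad (1.78 ± 0.16) and Rem2 (0.83 ± 0.08), small GTPases that hold back high-voltage calcium channels, and Stac3 (1.04 ± 0.20), a partner of the calcium channel of muscle. Fgf13, an intracellular factor that binds sodium channels, rose by 0.63 ± 0.07, and its relative Fgf12 fell by 0.29 ± 0.05. Dpp10, a partner of the same A-type channels as the Kcnip proteins, fell by 0.48 ± 0.05.

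Of 56 other channel genes 26 are listed, 8 of which rose and 10 of which fell, with a median of -0.21. Among all listed genes 40.2% rose and 24.8% fell. The acid-sensing channel gene Asic4 rose by 2.84 ± 0.27, the bestrophin Best1 by 1.83 ± 0.26 and the ATP-gated channel gene P2rx1 by 1.38 ± 0.24. The intracellular calcium release channels split, Itpr3 (1.34 ± 0.13) and Ryr3 (1.09 ± 0.10) rising and Itpr1, the abundant form of Purkinje cells, falling by 0.25 ± 0.05. The sodium leak channel gene Nalcn and its partner genes Unc79 and Unc80 all fell, by 0.40 ± 0.06, 0.41 ± 0.08 and 0.21 ± 0.05.

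The rotarod libraries were compared with rest to ask which genes respond to movement. The authors' deposited table lists 3 ion channel genes, all higher after rotarod: Kcna5, Kcnk1 and Cacna1c. They are 1.66% of the 181 family genes, against 3.71% of all RefSeq protein-coding genes. Of the features tested, which are of all gene types, 3.38% were listed in either direction and 2.06% as higher. None of the 3 passed limma with its adjustment over all features. Genes that limma called higher make up 0.42% of the features tested and those it called lower 0.201%, with features not listed counted as not called. All 3 had an unadjusted limma p under 0.05, which is no separate support, since the authors' test chose them on the same libraries. The groups did not overlap in 1 of the 3, Kcna5, against 84.9% of all genes in that table. Fos, a gene switched on by neuronal activity, rose by 4.03 ± 0.22 between the same libraries.

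Kcna5 (Kv1.5), a delayed rectifier pore, had 4, 5, 8 and 8 reads in the rest libraries and 18, 35, 20 and 24 in the rotarod libraries. Every rotarod library had more reads than any rest library. The totals of 25 and 97 give a ratio of 3.55 after scaling for depth (95% counting interval 2.27 to 5.75). On the log2 scale rest held -1.44, -1.07, -0.49 and -0.51 and rotarod 0.27, 1.24, 0.51 and 0.67, a difference of 1.55 ± 0.27 (limma adjusted p = 0.051). The value lies at the threshold: it passed with 1 added to each CPM (a difference of 0.80, adjusted p = 0.0292) and with an abundance trend (adjusted p = 0.0271). With any 1 library left out it did not pass (adjusted p 0.0804 to 0.147). The authors' deposited table gives it a log2 fold change of 1.78 (adjusted p = 0.000213). Kcna5 is not listed in the table of cKO against WT.

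Kcnk1 held 7.42, 7.44, 7.51 and 7.73 log2 CPM at rest and 7.83, 7.73, 7.85 and 7.89 after rotarod, and Cacna1c 7.30, 7.01, 7.41 and 7.09 and 7.41, 7.38, 7.58 and 7.65. In each gene the lowest rotarod library lay below the highest rest library. The differences were 0.30 ± 0.08 and 0.30 ± 0.11 (limma adjusted p = 0.269 and 0.729). In the cKO against WT these 2 genes went opposite ways, Kcnk1 falling by 0.28 and Cacna1c rising by 0.35. The tables were normalized separately and share no libraries, and the difference between the 2 comparisons was not tested. The rotarod table lists no granule neuron, Purkinje cell, inhibitory interneuron, oligodendrocyte, microglia, choroid plexus or muscle marker. Of unipolar brush cell markers it lists Eomes, which rose by 1.31 ± 0.18 (limma adjusted p = 0.0237). Of astrocyte and Bergmann glia markers 1 was lower, of vascular markers 1 was higher and of meninges and fibroblast markers 2 were lower, none past limma.

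**Figure D5:**
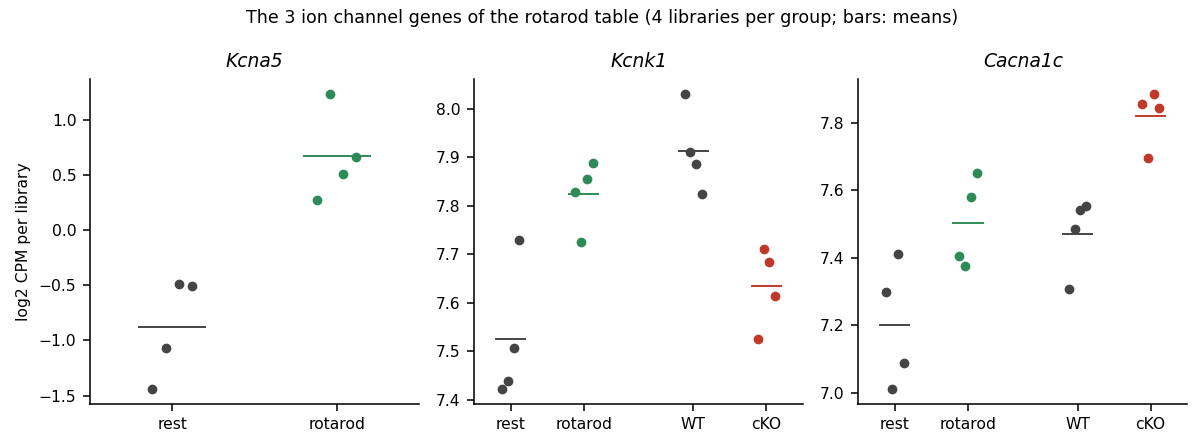
Log2 CPM (vertical axis, a scale of its own for each gene) in the 4 libraries of each group for the 3 ion channel genes listed for rotarod against rest, with WT and cKO beside them where that table lists the gene, and bars at the group means. Kcna5 is apart between rest and rotarod, Kcnk1 and Cacna1c overlap there, and rest or rotarod levels cannot be set against WT or cKO levels because the tables were normalized separately.

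Of the channel partners, Stac3 rose by 1.11 ± 0.11 after rotarod (limma adjusted p = 0.00732) and Rem2 differed by 0.50 ± 0.14 without passing. Both rose in cKO as well. Of the other channel genes, Lrrc8a, Lrrc8c and Ryr1 were higher by 0.24 to 0.34 and did not pass. Kcnmb4os2, the antisense gene of Kcnmb4, differed by -0.57 ± 0.12 (limma adjusted p = 0.099).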

How the data were processed

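Messenger RNA tables of cKO against WT and of rotarod against rest were used (4 libraries per group). The submitters' processing notes name Bowtie, build mm9 and edgeR, without versions. Per the file headers, the authors' deposited values are log2 CPM per library, log2 fold changes, a likelihood ratio (a score), p-values and adjusted p-values; what prior count, counting tool and filters they used is not stated. The highest deposited adjusted p-value is 0.0499, and the ratio of adjusted to raw p by rank gave 27100 and 26900 features tested. Repeated lines (49 and 5) were removed. Low values were whole multiples of 1 read (100% within 0.1 read), which gave depths and reads. Intervals cover counting error only.

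limma 3.58.1 (R 4.3.3) was fitted to the deposited log2 values of all listed genes, without a pseudocount, with p-values adjusted by Benjamini-Hochberg for all features tested. The variance prior comes from listed genes alone. The fit was tried on simulated data with normal errors and adjustment over the listed genes only. That trial had no read floor and no earlier choice of genes, so it does not test the reported calls. Members and lists were chosen with earlier results of these data known. Genes named are those in the rotarod table, up to 3 rises and 3 falls per class past limma at a mean of 0 log2 CPM or more, up to 4 genes near 0 reads and a list of firing genes; others are said to be picked after their values were seen or given in passing. WT and cKO titles share numbers 1 to 4. Deviations of same-numbered libraries correlated at 0.098, 0.160, 0.131 and 0.085 over all listed genes, not all above 0.1, and at 0.152, 0.268, 0.171 and 0.139 over those at a mean of 0 log2 CPM or more, all above it. Whether the numbers pair the samples thus depends on the genes taken. The fit without the block was kept, and calls that the block changes are given. Rotarod columns match no title number and are known by group. The 2 lists of regions on mm9 and the chromatin samples were not analysed here, nor were values of the Sync-TRAP libraries. Some genes are not reported here.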

Additional observations from a re-analysis of the deposited data

Results flagged for a closer look

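In 96 groups of 4 libraries of the named genes, 2 held a library far from the other 3 of its group (a gap past Dixon's 95% critical value); chance gives about 1 such group in 20. Cacnb3 was at 6.45 log2 CPM in cKO library 3, against 6.59 to 6.61 in the other cKO libraries. Scn2a1 was at 8.72 in cKO library 3, against 8.64 to 8.65. Each of these genes passed limma without any 1 library.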

How the results depend on the processing

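Against 35 rises, limma gave 9 with libraries 1 and 2 alone, 14 with libraries 3 and 4 alone (both chosen after seeing the data) and 30 to 34 with 1 library left out. Against 15 falls, it gave 24 with an abundance trend, 8 at a threshold of 0.01, 1 and 2 with those pairs of libraries and 9 to 12 with 1 library left out; the authors' deposited table has 32. With the library number as a replicate block, 34 rose and 10 fell; 9 calls were lost and 3 gained, among them Kcnb2 and Kcnk10. Same-numbered libraries did not all correlate best: cKO 4 correlated most with WT 3 (0.184). No rotarod block was possible because those columns carry no title numbers. Rises after rotarod numbered 0, against 1 with 1 added to each CPM, 1 with an abundance trend and 3 in the authors' deposited table. Of 50 calls, 38 (29 rises, 9 falls) held without any 1 library. Of 756 values of 46 named genes under these alternatives, 620 kept their direction and side of the threshold, 128 no longer passed, 8 newly passed and 0 changed sign.

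With 13.72 to 16.75 M reads per library, genes of under about 10 reads, such as Kcna7 or Kcnmb3, have intervals too wide to give the size of a change. Genes that the authors did not call have no value, so no list can be said to be unchanged.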
